A study of Homo sapiens with 4 samples.

Results

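*POU2F1* encodes OCT1, a transcription factor, and 8 of its transcripts without a protein-coding label were among the 106179 transcripts whose counts were deposited. They were found as all Ensembl identifiers in the table that GENCODE release 29 assigns to *POU2F1*. That release lists 17 *POU2F1* transcripts, and the 6 protein-coding and 3 nonsense-mediated decay ones were not in the table. The gene was chosen by its summed counts, which were lower in resistant cells in these same libraries, so its levels are given as a description, with no test.

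The resistant group was 2 libraries of oxaliplatin-resistant HepG2 cells. The wild-type group was 2 libraries of HepG2 cells with the wild-type phenotype. HepG2 is an established line from a human liver tumour, and oxaliplatin is a platinum drug that binds DNA. Both kinds of cells were grown in DMEM with serum and antibiotics, and the labels list no treatment for either, so they name no drug at harvest. A selection dose or time, a clone or separate cultures are not named either, so the p-values below rest on a spread among libraries that may be technical. Total RNA, 2 µg a library, was sequenced as 150-base read pairs, and the libraries held 43473826 and 44063444 counts in resistant cells and 38113398 and 34898860 in wild type. Chi-square per transcript between libraries lay between 216.1 and 270.9, so no pair matched within sampling noise.

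OCT1 is a widely expressed factor of the POU family. Its POU domain binds the octamer element, which occurs in promoters of histone H2B, immunoglobulin and small nuclear RNA genes. It acts with cofactors such as OCA-B and the SNAPc complex, and DNA-dependent protein kinase phosphorylates it after DNA damage.

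The 8 transcripts differ in length and in which exons they hold. *POU2F1* spans GRCh38 chromosome 1, 167220829 to 167427345, plus strand. ENST00000367865, a processed transcript (GENCODE's class for a spliced transcript with no annotated reading frame), runs over nearly the whole gene, from 167220895 to 167427345, in 18 exons and 14332 bases. Of those bases, 96.6% also lie in protein-coding *POU2F1* transcripts, and its last exon of 11846 bases, outside the coding sequence for 11500 of them, makes up 82.7% of its length. ENST00000559038 begins 19 bases upstream of it and stops at 167365569 after 5 exons and 557 bases, of which 78.1% are shared with ENST00000367865. ENST00000557909, with 7 exons and 588 bases, starts at 167220886 and ends at 167374183, and shares 81.8% of its bases with ENST00000367865.

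The 2 exons printed here set ENST00000559038 against ENST00000367865, between which the resistant libraries differed most. They are in capitals, with 5 bases of the neighbouring exons of the spliced transcript in lower case (GENCODE release 29, GRCh38, plus strand). Exon 2 of ENST00000559038 (chr1:167241407-167241610) is shared with ENST00000367865 and the uncounted ENST00000492850 and is in no protein-coding transcript. Its exon 3 (chr1:167303474-167303574) is missing from ENST00000367865 and occurs in the protein-coding ENST00000541643 and in 3 nonsense-mediated decay transcripts. The number of transcripts of other genes that hold a run of 25 bases of either exon was 0.
ENST00000559038 exon 2: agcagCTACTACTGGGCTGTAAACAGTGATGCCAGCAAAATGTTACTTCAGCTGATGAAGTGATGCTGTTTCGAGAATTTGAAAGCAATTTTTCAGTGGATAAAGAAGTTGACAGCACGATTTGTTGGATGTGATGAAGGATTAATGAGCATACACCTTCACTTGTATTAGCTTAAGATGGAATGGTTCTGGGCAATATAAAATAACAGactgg
ENST00000559038 exon 3: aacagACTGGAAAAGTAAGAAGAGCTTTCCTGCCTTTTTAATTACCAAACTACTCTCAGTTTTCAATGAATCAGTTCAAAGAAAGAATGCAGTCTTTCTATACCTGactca

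**Figure D1:**
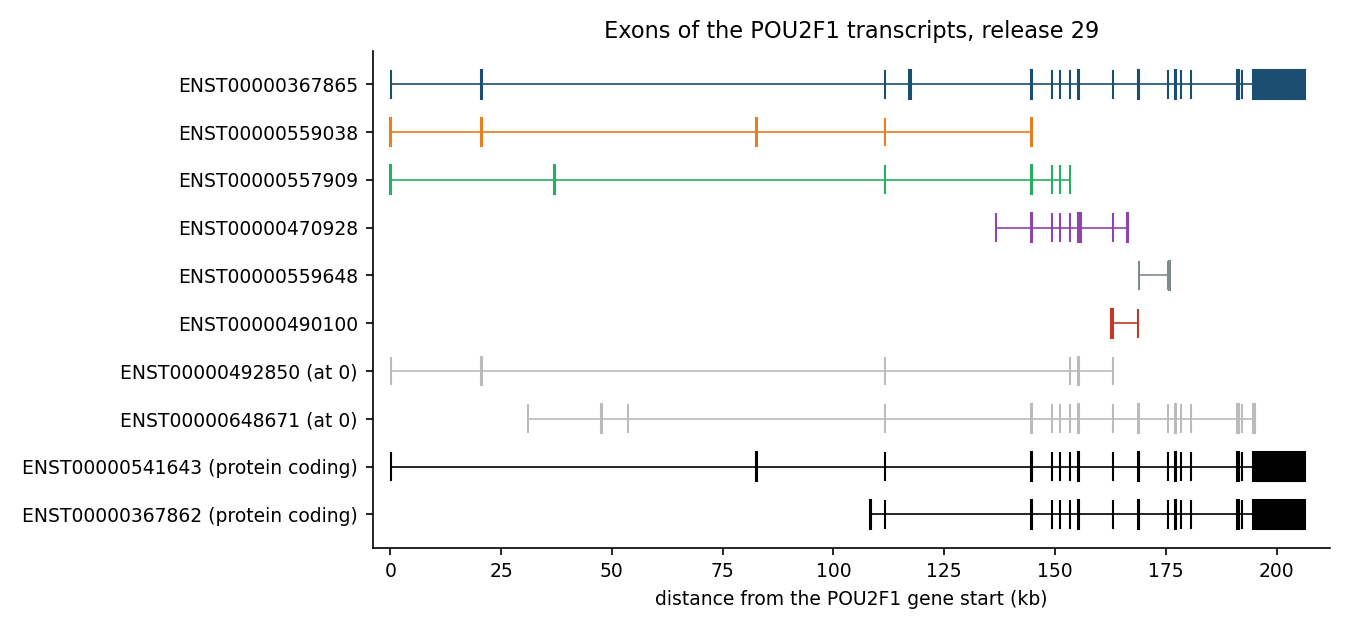
Exons (blocks and ticks) and introns (lines) of the 8 *POU2F1* transcripts in the table and of 2 protein-coding ones, against distance from the gene start in kb. ENST00000367865, at the top, carries a last exon of 11846 bases that it shares with protein-coding transcripts; of the other 7 in the table, ENST00000648671 holds the beginning of that exon.

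Summed over the 8 transcripts, *POU2F1* (ENSG00000143190) had 8180 and 7149 counts in resistant cells, against 65831 and 55769 in wild type. In CPM, counts per unit of library size after scaling by the trimmed mean of M-values over gene sums, these are 217.7 and 195.4 in resistant cells and 2226 and 2049 in wild type. The mean was 10.3-fold lower in resistant cells, at 206.5 ± 15.8 CPM against 2137 ± 125.5 CPM in wild type (SD, n = 2 each), a log2 ratio of -3.37. The groups did not overlap, and the libraries of a group differed 1.11-fold in resistant cells and 1.09-fold in wild type. Since the difference was the reason for the choice of the gene, nothing is read from it beyond its size. In bulk RNA, fewer cells with a transcript and less of it per cell cannot be told apart.

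The lower sum rested on 1 transcript. ENST00000367865 had 47 and 6030 counts in resistant cells and 62180 and 54152 in wild type. Both resistant libraries were low, but they differed 131.8-fold in CPM from each other, whereas the wild-type libraries differed 1.06-fold. Its mean was 24.6-fold lower in resistant cells, at 83.0 ± 115.6 CPM against 2046 ± 80.2 CPM in wild type (SD, n = 2). Without ENST00000367865, the other transcripts of *POU2F1* summed to 8133 and 1119 counts in resistant cells and 3651 and 1617 in wild type. There the groups overlapped, at 216.4 and 30.6 CPM in resistant cells and 123.5 and 59.4 CPM in wild type, and the log2 ratio of means was 0.43. Leaving out resistant replicate 1 turned that ratio to -1.58, and leaving out wild-type replicate 2 brought it to 0.00.

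In resistant replicate 1 most counts of the gene stood on ENST00000559038. This short transcript had 5671 and 0 counts in resistant cells and 3077 and 1016 in wild type. Of its 557 bases, 2 lie in no other *POU2F1* transcript. How reads of shared exons were split between it, ENST00000367865 and transcripts not in the table was not tested. A count of 0 allows up to 3 counts, so resistant replicate 1 was at least 1841-fold above resistant replicate 2, a bound that covers counting error only. The groups overlapped, and the resistant libraries were the highest and the lowest of the 4. ENST00000559038 thus held 69.3% and 0% of the gene's counts in resistant cells and 4.67% and 1.82% in wild type. ENST00000367865 held 0.575% and 84.3% in resistant cells, against 94.5% and 97.1% in wild type. The difference in mean share, -53.3 percentage points, was -11.4 without resistant replicate 1 and -95.2 without resistant replicate 2.

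ENST00000557909 was higher in both resistant libraries. It had 1953 and 867 counts there, against 445 and 425 in wild type, or 52.0 and 23.7 CPM against 15.0 and 15.6 CPM. The mean was 2.47-fold higher in resistant cells, at 37.8 ± 20.0 CPM against 15.3 ± 0.399 CPM in wild type (SD, n = 2). The wild-type libraries were close together and the resistant ones 2.19-fold apart.

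The remaining transcripts were counted at low levels. ENST00000470928, with 9 exons inside the gene, had 137 and 126 counts in resistant cells and 86 and 72 in wild type. ENST00000559648, with 3 exons, had 130 and 126 counts in resistant cells and 43 and 104 in wild type. In CPM, ENST00000470928 was higher in both resistant libraries, at 3.65 and 3.44 against 2.91 and 2.64, while ENST00000559648 overlapped between the groups. ENST00000490100, the gene's retained-intron transcript, had 242 counts in resistant replicate 1 and 0 in the other 3 libraries. ENST00000492850 and ENST00000648671 had 0 counts in all 4, which allows up to 3 counts in each.

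Of the 6 counted transcripts, the groups did not overlap in 3, where 40.3% of the 42393 transcripts that passed the expression filter did not overlap. Of these 3, ENST00000367865 was lower in resistant cells (18.9% of all tested were lower without overlap), and ENST00000557909 and ENST00000470928 were higher (21.4%). The *POU2F1* contrast was used to choose the gene, so nothing is read from these shares. The filter kept 5 of the 8 transcripts and left out the retained-intron transcript and the 2 at 0.

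**Figure D2:**
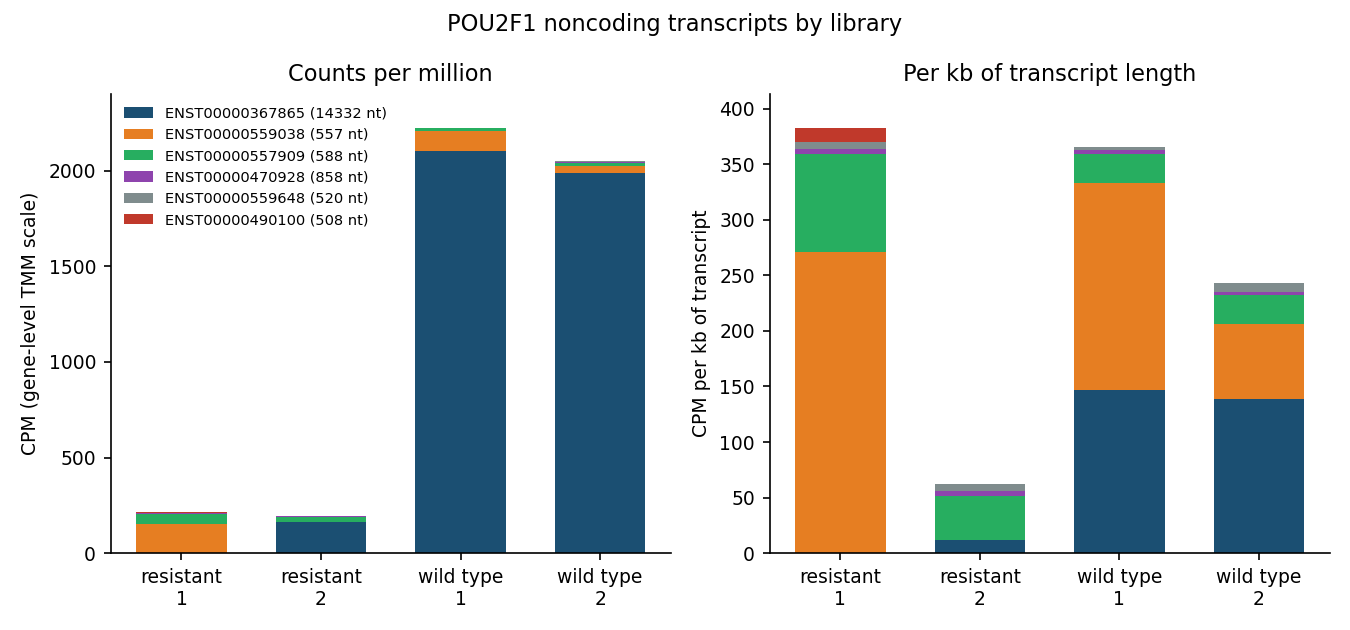
*POU2F1* noncoding transcripts in each library as stacked bars, in CPM on the left and in CPM per kb of transcript on the right. ENST00000367865 fills most of the wild-type bars on the left (2103 and 1989 CPM), and on the right the resistant libraries lie at both ends, at 383 and 62.4 CPM per kb, against 365 and 243 in wild type.

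Counts grow with transcript length, and ENST00000367865 is 25.7 times as long as ENST00000559038. Divided by annotated length, the *POU2F1* sum came to 383 and 62.4 CPM per kb in resistant cells, against 365 and 243 CPM per kb in wild type. On this scale the groups overlapped, with the highest and the lowest value both in resistant cells, and the log2 ratio of means was -0.45 instead of -3.37. The resistant libraries, alike in counts, were 6.14-fold apart per kb. Per kb, ENST00000367865 stood at 0.0873 and 11.5 in resistant cells and at 147 and 139 in wild type. ENST00000559038 stood at 271 and 0 CPM per kb in resistant cells, against 187 and 67.0 in wild type, so it exceeded ENST00000367865 in wild-type replicate 1 also. ENST00000557909 stood at 88.4 and 40.3 CPM per kb in resistant cells and at 25.6 and 26.6 in wild type. It made up 23.1% and 64.5% of the gene's sum per kb in resistant cells, against 7.01% and 10.9% in wild type. The scale per kb was chosen after seeing the counts.

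Set beside all named transcripts with a count in the same library, the levels per kb of ENST00000367865 were exceeded by 95.1% and 26.1% of them in resistant cells and by 2.70% and 2.87% in wild type. The levels of ENST00000559038 were exceeded by 1.05% in resistant replicate 1, and by 2.09% and 6.40% in wild type. Those of ENST00000557909 were exceeded by 4.40% and 9.96% in resistant cells and by 15.2% and 14.8% in wild type. In wild type the order per kb of the first 2 differed between the libraries, with ENST00000559038 higher in replicate 1 and ENST00000367865 in replicate 2. How reads of their shared exons were split was not tested, so no order of these 2 is read from the values. ENST00000557909 was below both in each wild-type library.

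How far a gene's counts shift between its transcripts from library to library was described as the percentage of counts that would have to move between transcripts for the shares of 2 libraries to match. For *POU2F1* this was 84.0% in the resistant pair and 2.85% in the wild-type pair. The value rests on how reads of shared exons were assigned to transcripts, which was not tested. Among 4071 genes with at least 2 counted transcripts and a sum of at least 500 counts in every library, the median was 13.2% in the resistant pair and 14.5% in the wild-type pair. The resistant value of *POU2F1* was above 98.8% of these genes and its wild-type value above 13.4%. The most counted transcript was a different one in the 2 resistant libraries for 951 genes (23.4%), *POU2F1* among them, and in the 2 wild-type libraries for 1046 genes (25.7%), *POU2F1* not among them.

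**Figure D3:**
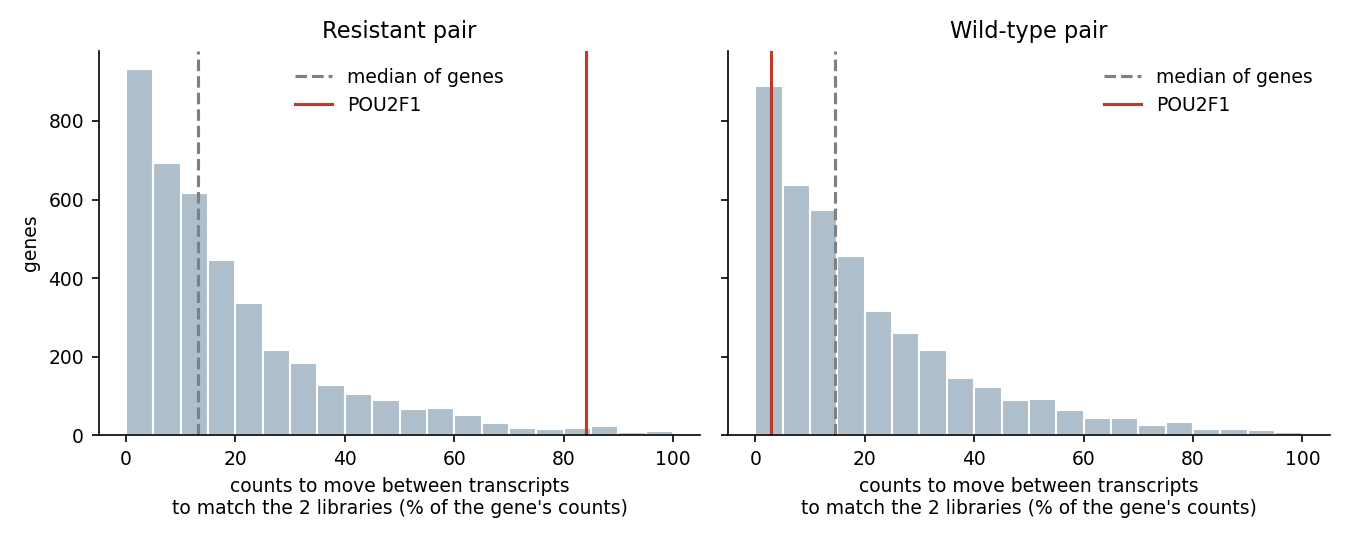
Number of genes, of 4071, by the percentage of a gene's counts that would have to move between its transcripts to match 2 libraries of a group, in bins of 5 points, for the resistant pair (left) and the wild-type pair (right). *POU2F1* (red line) lies at 84.0% in the resistant pair and 2.85% in the wild-type pair, against medians of 13.2% and 14.5% (dashed lines).

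Long transcripts that mostly repeat an mRNA were few in the table. Of 30743 transcripts of protein-coding genes that passed the filter, with a median length of 693 bases, 3 were longer than ENST00000367865. The share of bases in protein-coding transcripts of the same gene, 96.6% for ENST00000367865, had a median of 65.6%. Transcripts of at least 5 kb with at least 90% of their bases shared in this way numbered 99. Of the 99, 15 (15.2%) were lower and 21 (21.2%) higher in resistant cells without overlap of the groups, where 18.9% of all tested transcripts were lower and 21.4% higher without overlap, and ENST00000367865 is 1 of the 15. In edgeR's quasi-likelihood test with Benjamini-Hochberg adjustment 0 of the 99 passed, where 0 of all 42393 tested transcripts did. An unadjusted p under 0.05 was found for 9 of the 99, and for 7.74% of all tested transcripts. DESeq2 called 8 of the 99, where it called 5.33% of all. How far reads of *POU2F1* mRNAs, which are not in the table, were counted on ENST00000367865 was not tested.

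At the start of the gene, 4 of the 8 transcripts and 3 protein-coding ones begin within 100 bases of the first annotated base. The *POU2F1* promoter that they share and a second RefSeq promoter 108184 bases downstream are printed below (RefSeq, GRCh38.p14, plus strand, 250 bases before to 50 after the start). They are shown because ENST00000367865, ENST00000559038 and ENST00000557909 begin at the first while their counts differed between libraries in different ways, and because the second holds the motif that OCT1 itself binds. The octamer ATGCAAAT was searched on both strands, and no other motif was searched. It is in the second window as its reverse complement ATTTGCAT, in capitals, 179 bases upstream of the start, and these letters are not in the first. Of the 3 *POU2F1* windows that RefSeq gives, 1 holds the octamer, and the third, not printed, does not. Of 35116 RefSeq promoter windows of this length, 623 (1.77%) hold the octamer on either strand. None of the 8 transcripts in the table starts at the second promoter.
First promoter (chr1:167220636-167220935): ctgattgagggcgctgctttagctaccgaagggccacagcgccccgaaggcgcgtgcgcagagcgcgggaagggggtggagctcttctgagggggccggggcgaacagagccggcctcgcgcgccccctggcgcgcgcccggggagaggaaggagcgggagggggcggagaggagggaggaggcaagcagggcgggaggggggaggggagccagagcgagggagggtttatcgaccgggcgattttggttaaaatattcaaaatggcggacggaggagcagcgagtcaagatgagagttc
Second promoter (chr1:167328820-167329119): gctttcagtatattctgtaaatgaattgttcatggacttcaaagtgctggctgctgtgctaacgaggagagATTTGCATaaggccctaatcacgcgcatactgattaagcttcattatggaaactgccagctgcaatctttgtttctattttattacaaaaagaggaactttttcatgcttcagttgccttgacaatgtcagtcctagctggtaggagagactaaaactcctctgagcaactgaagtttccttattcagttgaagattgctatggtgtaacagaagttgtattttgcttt

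None of the tested genes around *POU2F1*, whose counts the choice of the gene did not use, passed edgeR's test, and neither did any other gene in the table. Within 1 Mb lie 52 other genes, of which 28 had a transcript in the table, 13 had counts and 10 could be tested. Their values are sums over noncoding transcripts. With edgeR's quasi-likelihood test and Benjamini-Hochberg adjustment, 0 of all 13745 genes passed (lowest adjusted p = 0.323). The 0 of the 10 that passed (lowest adjusted p = 0.521) is thus no trait of these genes. At an unadjusted p under 0.05 there was 1 of the 10, where 8.67% of all genes lay, and DESeq2 called that same gene, *GPR161*, where it called 4.60% of all genes. Means were higher in resistant cells for 6 and lower for 4 of them, with a median log2 fold change of 0.10, against 0.01 over all genes. The groups did not overlap in 5 of the 10, 3 higher and 2 lower in resistant cells, where 43.0% of all genes did not overlap, 22.5% higher and 20.5% lower.

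*AL136984.1*, a sense intronic gene inside *POU2F1* at chromosome 1, 167379108 to 167381000, plus strand, had 98 and 116 counts in resistant cells and 73 and 61 in wild type. It was at 2.61 and 3.17 CPM in resistant cells, against 2.47 and 2.24 CPM in wild type, which edgeR estimated as a log2 fold change of 0.29 with a standard error of 0.44 (adjusted p = 0.904). The groups did not overlap, with both resistant libraries above the wild-type ones. It lies on the strand of *POU2F1*, so reads of its unspliced transcripts cannot be told apart from those of this gene. *AL451050.2*, a lincRNA gene on the minus strand whose body lies 317 bases upstream of *POU2F1*, had 43 and 36 counts in resistant cells and 29 and 33 in wild type, or -0.04 ± 0.53 on the log2 scale (SE; adjusted p = 0.990 in edgeR). *LINC01363*, an antisense gene 25037 bases upstream, had 376 and 351 counts in resistant cells and 47 and 116 in wild type. Both resistant libraries were higher, but the difference, 1.74 ± 0.64 on the log2 scale, did not pass (SE; adjusted p = 0.601 in edgeR).

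Farther away, *GPA33*, the gene of an intestinal surface antigen, had 0 and 82 counts in resistant cells and 102 and 102 in wild type, and *TADA1*, a gene of a SAGA complex subunit, had 831 and 798 against 583 and 863. Downstream, *MPZL1*, which encodes a membrane glycoprotein, had 466 and 709 CPM in resistant cells and 397 and 686 CPM in wild type. *DCAF6* was at 178 and 47.1 CPM in resistant cells and at 44.3 and 94.9 CPM in wild type. *GPR161*, a gene of a ciliary receptor that dampens Hedgehog signalling, was at 24.6 and 25.1 CPM in resistant cells, against 43.8 and 47.6 CPM in wild type, or -0.88 ± 0.27 on the log2 scale (SE; adjusted p = 0.521 in edgeR and 0.0472 in DESeq2). *SFT2D2* had 47 and 40 counts in resistant cells and 16 and 15 in wild type. Apart from *GPR161*, whose DESeq2 value is given, these genes passed neither edgeR nor DESeq2.

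**Figure D4:**
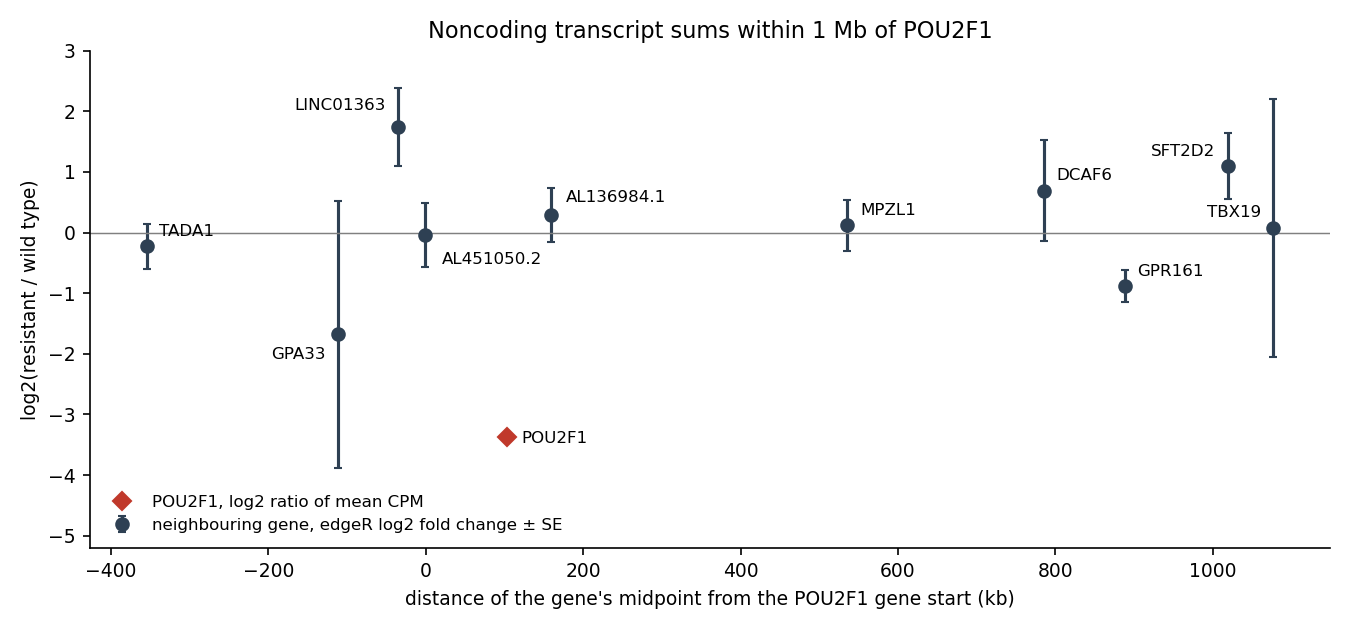
Log2 ratio of resistant over wild type for the noncoding transcript sums of the 10 tested genes within 1 Mb of *POU2F1* (points, edgeR log2 fold change ± SE) and for *POU2F1* (diamond, log2 ratio of mean CPM, -3.37), against the distance of each gene's midpoint from the *POU2F1* start in kb. The neighbours lie between -1.68 and 1.74, and none passed edgeR's test, which 0 of all genes passed.

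Other members of the POU family were hardly represented. Of 15 genes, 5 had a transcript in the table and 2 had counts. Values of these genes, as of all listed genes below, are sums over noncoding transcripts and do not give mRNA levels. *POU6F1* had 1548 and 1392 counts in resistant cells and 864 and 675 in wild type. Both resistant libraries were higher, and the difference of 0.55 ± 0.28 on the log2 scale did not pass (SE; adjusted p = 0.695 in edgeR and 0.549 in DESeq2). *POU5F1*, the gene of the pluripotency factor OCT4, had 0 and 103 counts in resistant cells and 0 in both wild-type libraries. *POU2F2* and *POU2F3*, the closest relatives of *POU2F1*, were at 0 in all 4.

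Of 30 listed partners of OCT1 (cofactors, kinases and interacting proteins), 22 had a transcript in the table and 19 could be tested. Their values are sums over noncoding transcripts, not mRNA levels. In edgeR 0 passed with Benjamini-Hochberg adjustment, where 0 of all genes did. At an unadjusted p under 0.05 there were 6, 3 higher and 3 lower in resistant cells. That is 31.6% of the list, against 8.67% of all genes, and the median log2 fold change was 0.04, against 0.01 over all genes. The list was chosen with earlier results of these data known, so nothing is read from the higher share. Of the 4 with the highest mean, *GAPDH* and *LDHA*, glycolytic genes whose proteins also occur in the OCT1 coactivator complex of histone H2B, had 8662 ± 874 and 2571 ± 168 CPM in resistant cells and 8405 ± 2573 and 3144 ± 198 CPM in wild type (SD, n = 2). *MNAT1*, a gene of the CDK-activating kinase, had 1173 ± 79.3 CPM in resistant cells and 1265 ± 444 CPM in wild type (SD, n = 2). *XRCC5*, the Ku80 gene of the DNA-dependent protein kinase, was at 1536 and 1351 CPM in resistant cells, against 847 and 760 CPM in wild type, or 0.85 ± 0.22 on the log2 scale (SE; adjusted p = 0.451 in edgeR).

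Among the partners with an unadjusted p under 0.05, named after their values were seen, were *XRCC5*, *HCFC1* and *NR3C1*, the glucocorticoid receptor gene, with higher means in resistant cells, and *NONO* and *PARP1* with lower ones. *NR3C1* was at 98.9 and 148 CPM in resistant cells and 63.6 and 63.3 CPM in wild type (adjusted p = 0.548 in edgeR). *PARP1*, the poly(ADP-ribose) polymerase gene of DNA repair, was at 31.1 and 34.6 CPM in resistant cells and 93.2 and 52.7 CPM in wild type (adjusted p = 0.572 in edgeR). DESeq2 called 2 of the 19 genes, *XRCC5* among them (adjusted p = 0.0469), where it called 4.60% of all genes. *HCFC1* had 19 counts in each resistant library and 0 in both wild-type ones, at least 4.84-fold higher against 3 counts per library. *POU2AF1*, the gene of OCA-B, had 4 counts in wild-type replicate 1 and 0 in the other 3 libraries.

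Of 25 listed targets of OCT1, 14 had a transcript in the table and 7 could be tested. In edgeR 0 of the 7 passed (lowest adjusted p = 0.509), where 0 of all genes did. These values too are sums over noncoding transcripts, not mRNA levels. *PTGS2*, the cyclooxygenase-2 gene, was at 15.1 and 8.17 CPM in resistant cells, against 32.7 and 32.0 CPM in wild type, and was the 1 target with an unadjusted p under 0.05 (3.93% of all genes were lower at that threshold), at -1.48 ± 0.44 on the log2 scale (SE; adjusted p = 0.509 in edgeR). *VIM*, the vimentin gene, had 79.6 ± 5.04 CPM in resistant cells and 131.7 ± 34.6 CPM in wild type. *CCND1*, the cyclin D1 gene, had 37.8 ± 0.625 and 31.8 ± 6.45 CPM in resistant and wild-type cells, and *PDK4*, a kinase gene of pyruvate metabolism, 20.3 ± 1.62 and 16.1 ± 10.4 CPM (SD, n = 2). DESeq2 called 0 of the 7, where it called 4.60% of all genes. The median log2 fold change was 0.13, against 0.01 over all genes. Of the 5 listed organic cation transporter genes, 3 were tested and 0 passed in edgeR or DESeq2 or had an unadjusted p under 0.05. Of all genes, edgeR called 0, DESeq2 called 4.60%, and 8.67% had an unadjusted p under 0.05 in edgeR. *SLC22A4* was at 147 and 165 CPM in resistant cells and 133 and 92.5 CPM in wild type, and *SLC22A5* at 88.6 and 105.4 against 121.0 and 110.8 CPM.

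The genes whose 4 values were most like those of *POU2F1* also had a lower sum in resistant cells, as the measure requires. All these values are sums over noncoding transcripts, not mRNA levels. Likeness was the Euclidean distance between log2(CPM + 0.1) values centred on each gene's mean, over 4 libraries and 6872 genes with a mean at or above the median. The closest was *MINK1* (distance 0.329), a kinase gene, at 50.7 and 51.1 CPM in resistant cells and 429 and 433 CPM in wild type. *ALDH1A3* (0.378), of retinoic acid synthesis, was at 1.84 and 2.10 CPM in resistant cells and 22.7 and 25.9 CPM in wild type. *WARS2* (0.437), the gene of the mitochondrial tryptophanyl-tRNA synthetase, was at 9.42 and 7.71 CPM in resistant cells and 85.1 and 59.6 CPM in wild type. *MRM2* (0.497), a mitochondrial ribosomal RNA methyltransferase gene, was at 8.83 and 10.4 CPM in resistant cells and 124 and 136 CPM in wild type. *PTPRS* (0.523), a receptor phosphatase gene, was at 102 and 81.1 CPM in resistant cells and 1495 and 1141 CPM in wild type.

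The share of each gene's most counted transcript is given as a description: with sums this much higher in wild type, the wild-type libraries largely set which transcript that is, and so also that its share is lower in resistant cells. In *MINK1*, ENST00000572330 held 90.1% and 80.7% of counts in resistant cells and 99.1% and 98.7% in wild type. In *WARS2*, ENST00000495746 held 0% in both resistant libraries, against 96.6% and 97.3% in wild type. In *ALDH1A3*, ENST00000560555 held 0% in both resistant libraries, against 71.5% and 88.0% in wild type. In *MRM2*, ENST00000467199 held 63.9% and 86.1% in resistant cells and 99.7% and 99.8% in wild type. In *PTPRS*, ENST00000588552, of 5443 bases, held 96.7% and 97.8% in resistant cells and 99.9% and 99.7% in wild type. The resistant libraries of *POU2F1*, at 0.575% and 84.3%, were the farthest apart of these 6 genes.

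The liver label could be checked only on noncoding transcripts. Of 20 hepatocyte markers 14 had a transcript in the table, and 9 of these, among them *AFP*, *TTR*, *TF*, *SERPINA1* and *AMBP*, were at 0 in all 4 libraries. *ALB* had 8 counts in wild-type replicate 1 and 0 elsewhere. The list summed to 63.5 and 50.7 CPM in resistant cells and 73.0 and 88.1 CPM in wild type, nearly all from *CPS1*, a urea cycle gene. Of 16 markers of fibroblasts, endothelium and blood, 14 were in the table and 7 at 0 throughout, and the list summed to 4.34 and 1.72 CPM in resistant cells and 6.12 and 9.15 CPM in wild type. Among those at 0 were *COL1A2*, *KDR* and *CD3E*. Among those counted, *COL1A1* had 87 and 34 counts in resistant cells and 62 and 78 in wild type. *COL3A1* had 2 and 16 counts in resistant cells and 10 and 11 in wild type. *PTPRC* had 27 counts in resistant replicate 1 and 0 elsewhere. Of either list 3 genes could be tested, and 0 passed in edgeR or DESeq2, where edgeR called 0 and DESeq2 4.60% of all genes. At an unadjusted p under 0.05 there was 1 of the 3 fibroblast, endothelial and blood markers and none of the hepatocyte markers, where 8.67% of all genes lay, and 3.93% lower in resistant cells. It was *PDGFRB*, a pericyte and fibroblast receptor gene, with 44 and 11 counts in resistant cells and 106 and 160 in wild type. The part of either list in the *POU2F1* values was not tested.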

How the data were processed

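RNA-seq of total RNA from 2 resistant and 2 wild-type libraries was used. The authors' deposited table holds whole numbers per transcript, taken from the values as estimated counts; no rounding was needed. Aligner, counting tool and annotation: not given in the sources used here. As genome build the submitters' processing notes name mm9, a mouse build, while the identifiers are human. Of 103347 Ensembl identifiers, 84072 were named with GENCODE release 29 (GRCh38), and the other 19275 and 2832 assembled transcripts may hold further *POU2F1* reads. Named transcripts carried 79.4% to 83.3% of the counts.

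Counts were summed per gene. Genes and transcripts were tested over the whole table with edgeR 4.0.16 (R 4.3.3; quasi-likelihood, TMM, filter at a minimum count of 10, two-sided, Benjamini-Hochberg threshold 0.05), leaving 13745 genes and 42393 transcripts. DESeq2 1.42.0, limma 3.58.1, other scalings, no filter, a block and leaving out each library were alternatives. CPM of *POU2F1* transcripts uses the gene-level scale, where 3 counts, the most that a 0 allows by counting error alone, are 0.0798 to 0.110 CPM. The test was run on simulated data with far less spread than these. The common dispersion of the data was 0.542 over genes and 0.941 over transcripts. That check therefore does not show how many differences the test could find here. With 2 libraries against 2 no single value was tested by permutation. Figures were made with Python 3.11.15 and matplotlib 3.10.9.

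The members and lists were chosen with earlier results of these data known. The text names every counted *POU2F1* transcript, the members past the threshold or else the 4 of highest mean of each list, the nearest tested neighbours (up to 4 a side and any inside the gene), and the 5 genes most alike; exceptions are marked. Some genes and sequences that this rule covers are not reported here.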

Additional observations from a re-analysis of the deposited data

How the results depend on the processing

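The lower *POU2F1* sum in resistant cells (log2 ratio -3.37) lay between -3.45 and -3.30 when each library was left out in turn and was -3.25 when scaled to library totals. Per kb of transcript, an alternative added after seeing the data, it was -0.45. The sum without ENST00000367865 (0.43) was -0.065 as a difference of mean log2(CPM + 1), and lay between -1.58 and 1.24 with each library left out, so its direction rested on resistant replicate 1; the cause was not tested. The difference in share of ENST00000367865, -53.3 percentage points, had a range of -95.2 to -11.4 over the left-out libraries. edgeR called 0 genes and 0 transcripts with size factors of DESeq2, without a filter and without each library in turn, as did limma-voom, with 1192 genes and 3283 transcripts at an unadjusted p under 0.05 in the fit as reported. DESeq2 called 632 genes and 2261 transcripts. With the replicate number as a block edgeR called 0 genes and 0 transcripts. Deviations of same-numbered libraries had r = -0.0189 over genes and 0.00844 over transcripts, so no shared deviation was seen. Whether same-numbered libraries shared a culture or preparation is not named in the labels, and these correlations cannot exclude it. Depth sets a floor of 0.0798 to 0.110 CPM, below which a transcript could not be told from 0.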
